A study of Mus musculus with 6 samples.

Results

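The genes described here are 10 subunits of the Polycomb repressive complexes: *Ezh2*, *Suz12*, *Eed*, *Jarid2*, *Mtf2*, *Rnf2*, *Ring1*, *Phc1*, *Cbx7* and *Kdm2b*. They are 10 of the 21938 protein-coding genes annotated on the mouse assembly mm10 (GENCODE M21). Every peak with a base in the body of one of these genes, or up to 30 kb to either side, was taken, which gave 33 of 11106 peaks (0.297%). Peak width was among the measured values that chose this set, since *Phc1* was picked for holding one of the widest peaks, so widths are a description without a test.

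The peaks mark H3K56ac, histone H3 acetylated at lysine 56, measured by ChIP-seq in V6.5 mouse embryonic stem cells (mESCs) kept undifferentiated on feeder cells with LIF. All cells were infected with lentivirus, in Scramble cells with a control shRNA of scrambled sequence and in Sirt6 KD cells with an shRNA that targets *Sirt6*, whose product removes acetyl groups from histone H3. Each of these groups had 2 H3K56ac libraries and 1 input DNA library, 6 in all. The file analysed here holds 1 set of positions merged over libraries, with no read count, height or library of origin, so Scramble and Sirt6 KD cells cannot be told apart at any gene and nothing below has a replicate. The paper reports more H3K56ac peaks in Sirt6 KD than in Scramble cells. The positions and widths below are therefore those of the merged libraries, not of Scramble cells alone.

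Polycomb proteins keep developmental genes silent and act in 2 main complexes. PRC2 methylates a lysine in the tail of histone H3: *Ezh2* encodes the methyltransferase, *Suz12* and *Eed* the scaffold and the reader of the methyl mark, and *Jarid2* and *Mtf2* accessory subunits that help PRC2 bind chromatin. PRC1 ubiquitylates histone H2A through the E3 ligases encoded by *Rnf2* and *Ring1*. *Cbx7* encodes the chromodomain subunit that binds the methyl mark and *Phc1* a polyhomeotic subunit that polymerises in canonical PRC1, whereas *Kdm2b* encodes a protein that binds unmethylated CpG dinucleotides and brings a variant PRC1 to CpG islands. In mESCs, both complexes occupy the promoters of many lineage genes that are not yet expressed. The data describe an acetyl mark at the genes that encode the complexes, not the places where the complexes bind.

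Each of the 10 genes had peak bases at most 1 kb away from a transcription start site (TSS), but the peaks were placed differently relative to the start. To show the DNA at these starts, the bases just upstream of the outermost annotated 5′ end are printed 5′ to 3′ on the strand of the gene (mm10), with CpG dinucleotides in capitals. At *Phc1* (chr6:122340562-122340811, minus strand), *Eed* (chr7:89980984-89981233, minus strand) and *Suz12* (chr11:79992856-79993105, plus strand), the 250 bases shown lay wholly under a peak. At *Ezh2* (chr6:47595342-47595434, minus strand) the 93 bases between the 5′ end and the nearest peak are shown, and at *Ring1* (chr17:34024681-34024930, minus strand) 250 bases of such an interval. None of these stretches overlapped an annotated UTR, and the *Eed* stretch lay in an exon of the non-coding gene *E230029C05Rik*.
Phc1: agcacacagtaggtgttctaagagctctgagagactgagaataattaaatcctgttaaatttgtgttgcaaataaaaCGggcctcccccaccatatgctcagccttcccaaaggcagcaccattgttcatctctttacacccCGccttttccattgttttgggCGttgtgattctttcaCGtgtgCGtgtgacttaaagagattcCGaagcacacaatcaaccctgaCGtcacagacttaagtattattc
Eed: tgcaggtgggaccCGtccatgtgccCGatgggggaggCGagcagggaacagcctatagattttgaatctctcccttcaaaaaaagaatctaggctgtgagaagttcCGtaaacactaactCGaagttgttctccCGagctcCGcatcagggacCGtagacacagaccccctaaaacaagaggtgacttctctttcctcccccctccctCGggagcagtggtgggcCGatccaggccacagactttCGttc
Suz12: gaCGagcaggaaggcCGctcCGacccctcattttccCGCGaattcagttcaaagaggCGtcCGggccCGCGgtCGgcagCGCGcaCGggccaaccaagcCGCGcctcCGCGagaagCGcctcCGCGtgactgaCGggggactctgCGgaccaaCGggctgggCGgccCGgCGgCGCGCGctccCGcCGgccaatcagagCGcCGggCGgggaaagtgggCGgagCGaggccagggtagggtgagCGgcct
Ezh2: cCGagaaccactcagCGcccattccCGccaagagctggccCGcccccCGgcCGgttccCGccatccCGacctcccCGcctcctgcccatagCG
Ring1: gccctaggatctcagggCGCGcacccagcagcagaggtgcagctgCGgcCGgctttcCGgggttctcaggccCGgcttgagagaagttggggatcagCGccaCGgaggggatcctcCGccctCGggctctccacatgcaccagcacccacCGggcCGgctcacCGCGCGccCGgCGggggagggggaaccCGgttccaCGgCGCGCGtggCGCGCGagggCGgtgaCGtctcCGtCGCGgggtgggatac

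The sequence at *Phc1*, under the widest peak, held 7 CpG dinucleotides and 44.0% G and C. *Eed* had 11 CpG and 54.8% GC in the same length, and *Suz12* 37 CpG and 73.6% GC. The 93 bases at *Ezh2* held 10 CpG at 74.2% GC, and the 250 bases at *Ring1* 30 CpG at 73.6% GC. Peak bases thus lay over both CpG-poor and CpG-dense starts, and of the 5 stretches the 2 outside peaks were dense in G and C.

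A peak at a TSS, meaning any peak base within 1 kb of any annotated TSS of the gene, was found at 10 of 10 subunit genes (Wilson 95% interval 72.2 to 100%). Over all protein-coding genes the share was 35.7%, and over genes with a CpG-rich 5′ end it was 60.4%. CpG-rich means an observed-to-expected CpG ratio of at least 0.6 over the 500 bp before and after the 5′ end, which 7 of the 10 genes reached. Any peak in the window of body and flanks was found for 10 of 10 genes, against 56.8% of all coding genes. These intervals cover counting error only, and because the genes were chosen with the peaks known, the shares are set beside the background without a test.

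A peak of at least 3 kb lay in the window of 6 genes: *Phc1*, *Eed*, *Kdm2b*, *Cbx7*, *Jarid2* and *Suz12*. Among all coding genes 7.88% had one in the same kind of window, and among CpG-rich genes 11.6%. In each of the 6 genes the wide peak touched 1 kb around a TSS, against 3.35% of all coding genes. Counted by peak, 6 of 33 (18.2%) were that wide, against 6.83% of all peaks. The narrowest peak inside this limit was the 3100-bp peak of *Suz12*, and the widest outside it was a 2763-bp peak upstream of *Jarid2*. At a limit of 4 kb, 3 genes remained (*Phc1*, *Eed* and *Kdm2b*), against 2.88% of all coding genes.

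Ordered by the widest peak at a TSS, *Phc1* came first with 10340 bp, followed by *Eed* with 6260 bp and *Kdm2b* with 5253 bp. *Cbx7* (3440 bp), *Jarid2* (3415 bp) and *Suz12* (3100 bp) lay close together. *Rnf2* (1839 bp), *Mtf2* (1661 bp) and *Ezh2* (1248 bp) stood between the quartiles of 765 and 2169 bp over all 7836 coding genes with such a peak, whose median was 1348.5 bp, and *Ring1* (517 bp) stood below the lower quartile. The median of the 10 genes was 3257.5 bp. With 1 merged set there is no spread by which neighbours in this order could be separated.

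**Figure D1:**
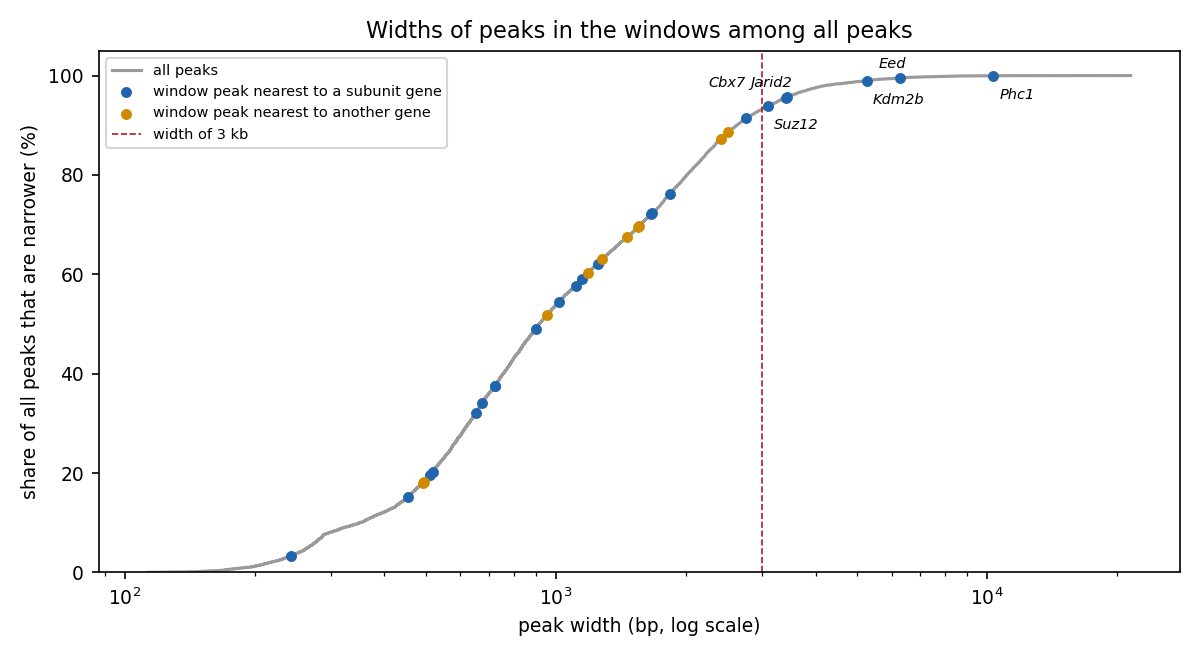
Peak width (bp, log axis) against the share of all 11106 peaks that were narrower (%, grey curve), with the 33 peaks in the windows as points, blue where the nearest coding TSS was that of the subunit gene and yellow where it was that of another gene. The 6 labelled peaks lie beyond the dashed line at 3 kb and all are blue.

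Over all 33 peaks the widths ran from 243 to 10340 bp, with a median of 1248 bp against 913.5 bp for all peaks. Of the 33, 22 were wider than that overall median. The 95% order-statistic interval of the median of the 33 was 898 to 1672 bp. It treats the peaks as independent draws, but they cluster in windows of genes chosen with the peaks known. The interval therefore describes spread and is not a test against the overall median. Bases under peaks made up 5.18% of the summed windows, against 1.53% for the windows of all coding genes. Per gene this share ran from 1.81% at *Ezh2* to 15.7% at *Phc1*, with a median of 3.98% against 0.594% over all coding genes and 1.68% over CpG-rich genes. The *Phc1* peak alone held 16.3% of the summed width of the 33 peaks. The windows held a median of 3 peaks, against 1 over all coding genes and 1 over CpG-rich genes. Because longer genes have longer windows, the median per 100 kb is given too, 2.64 against 0.876 over all coding genes.

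**Figure D2:**
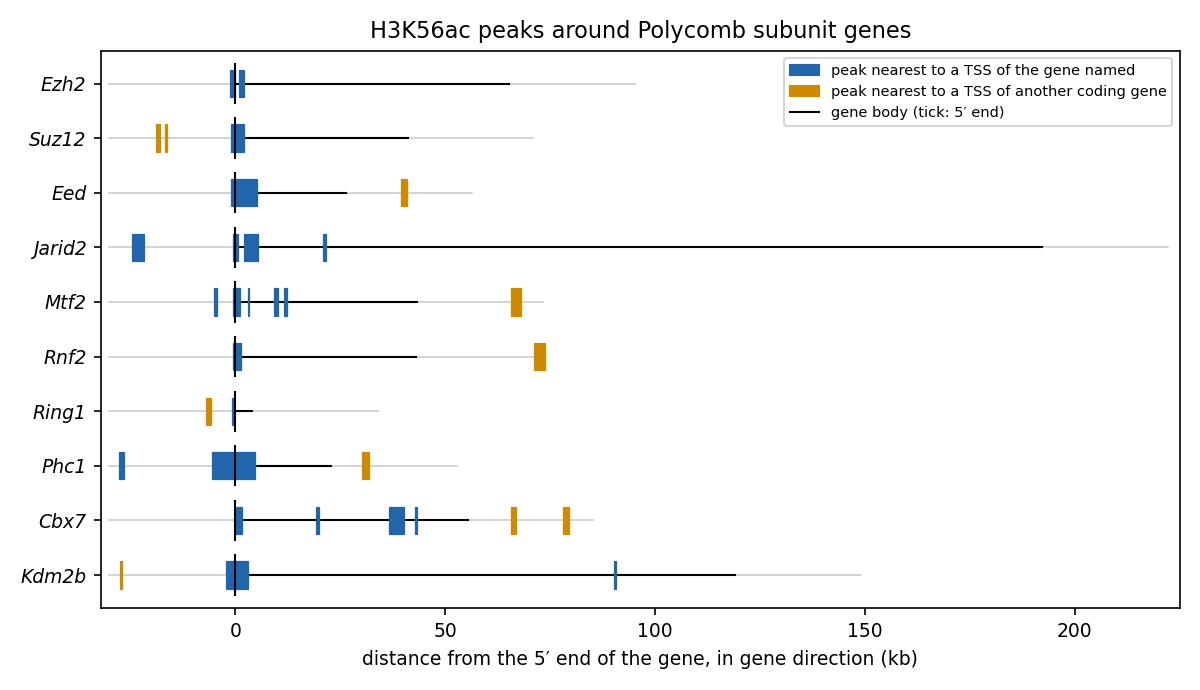
Position of each H3K56ac peak in the windows of the 10 genes, as distance from the 5′ end in the direction of the gene (kb), with gene bodies in black and flanks in grey. Blue peaks were nearest to a TSS of the gene named and yellow peaks to that of another coding gene, and 15 of the 23 blue peaks have a base within 1 kb of a TSS of their gene.

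Not every peak in a window belonged to the subunit gene by position. By the nearest coding TSS to the midpoint, 23 of the 33 peaks fell to the gene itself and 10 to a neighbour. Of the 23, 15 had a base within 1 kb of a TSS of the gene and 8 lay farther away. The 10 others were 492 to 2502 bp wide, and none reached 3 kb. Named neighbours with a TSS within 1 kb of one of these peaks were *Hikeshi* beside *Eed*, *Tmed5* and *Ccdc18* beside *Mtf2*, *Swt1* and *Trmt1l* beside *Rnf2*, *Slc39a7*, *Rxrb* and *Gm20427* beside *Ring1*, *M6pr* beside *Phc1* and *Apobec3* beside *Cbx7*.

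Of the PRC2 core genes, *Eed* had the widest peak. *Eed* (chr7:89954654-89980983, minus strand) carried a 6260-bp peak at chr7:89975817-89982076, the 54th widest of all, from −1093 to +5166 bp relative to the 5′ end. It covered 5 of 10 annotated TSS of the gene and reached well into the body. A non-coding gene, *E230029C05Rik*, also has a TSS within 1 kb of it, so acetylation of these starts cannot be told apart.

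*Suz12* (chr11:79993106-80034123, plus strand) carried a 3100-bp peak at chr11:79992106-79995205, from −1000 to +2099 bp, which ranked 684th. Its other window peaks, of 954 and 493 bp, lay in the intergenic region toward *Utp6*, whose TSS was nearer to both. Their nearest bases were 18027 and 16187 bp from the nearest *Suz12* TSS. The 493-bp peak was 63.1% repeat-masked sequence, the highest share of the 33 peaks, whose median was 13.5% against 9.84% for all peaks.

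*Ezh2* (chr6:47530139-47595341, minus strand), the catalytic gene, had no peak over its 5′ end. A 1248-bp peak at chr6:47595435-47596682 lay from −1341 to −94 bp, and a 1018-bp intronic peak at chr6:47593337-47594354 from +987 to +2004 bp. The interval of 1080 bp between them held the 5′ end, and none of its 12 TSS lay under a peak. No 2 peaks of the whole set lay closer than 1000 bp, so this interval was near the shortest that the file contains.

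**Figure D3:**
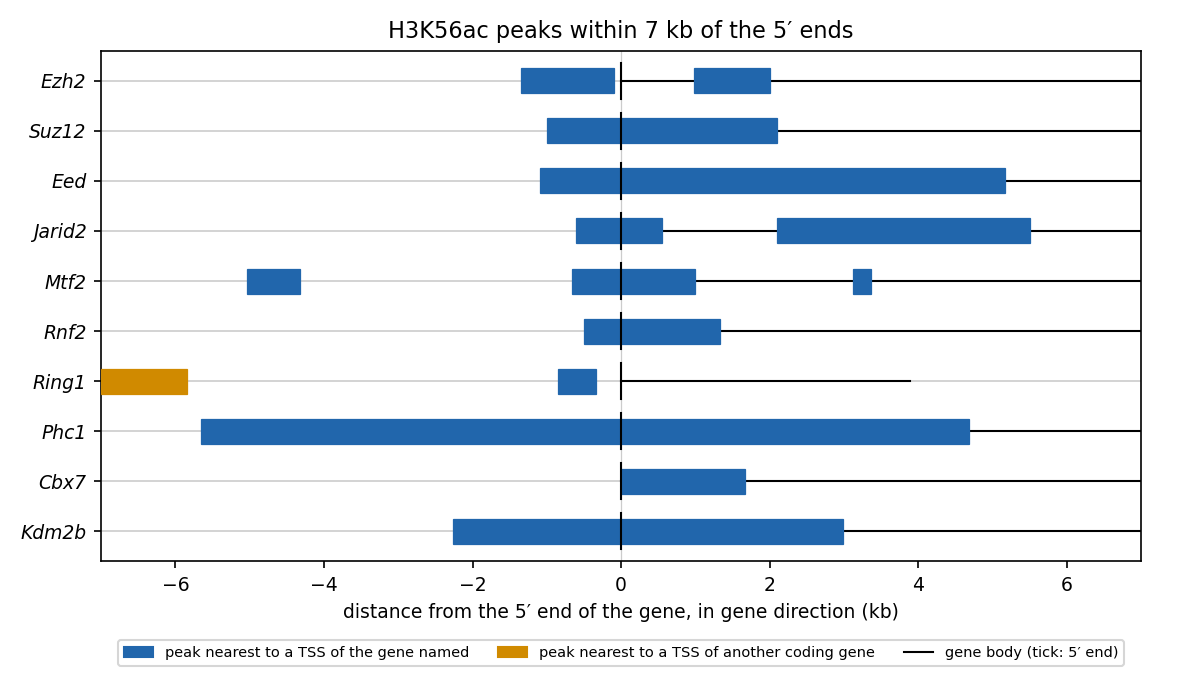
H3K56ac peaks within 7 kb of the 5′ end of each gene (distance in kb in gene direction, 5′ end at 0, gene body in black). Blue bars cover the 5′ end in 8 genes and miss it at *Ezh2* and *Ring1*, and the *Phc1* bar is the longest.

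The accessory PRC2 genes each had several peaks. *Jarid2* (chr13:44729474-44921643, plus strand) had a 1146-bp peak over its 5′ end at chr13:44728873-44730018 and a wider one, of 3415 bp, at chr13:44731569-44734983 inside the gene. The latter ran from +2095 to +5509 bp and covered 3 further TSS. A 2763-bp peak at chr13:44704931-44707693 had its midpoint 23162 bp upstream in intergenic sequence, where *Jarid2* was the nearest gene of any type. The midpoint of a 673-bp intronic peak lay 16752 bp from the nearest TSS. The intergenic peak was the widest of the 8 that lay beyond 1 kb of a TSS of the subunit gene nearest to them.

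*Mtf2* (chr5:108065674-108109004, plus strand) had 5 peaks of its own, all modest in width. The peak over the 5′ end, at chr5:108065011-108066671, measured 1661 bp and covered 8 of 12 TSS. The midpoint of a 721-bp peak lay 4678 bp upstream. Intronic peaks of 243, 898 and 722 bp lay at +3124, +9329 and +11570 bp from the 5′ end at their upstream edges. The 722-bp peak came within 200 bp of an internal TSS, and the 243-bp peak was the narrowest of the 33.

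The E3 ligase genes of PRC1 differed in peak width. *Rnf2* (chr1:151458004-151500955, minus strand), which encodes the main ligase in mESCs, had a single peak of its own, 1839 bp at chr1:151499618-151501456, from −501 to +1337 bp. It covered 4 of 7 TSS, and the non-coding gene *Gm36527* has a TSS within 1 kb of it. *Ring1* (chr17:34020792-34024680, minus strand), its paralogue, had a 517-bp peak at chr17:34025013-34025529, from −849 to −333 bp, and no TSS under a peak. The TSS nearest to the midpoint of that peak was not that of *Ring1* but of the microRNA gene *Mir219a-1*, 179 bp away, and *Mir219c* and *Gm26940* also start within 1 kb. Which of these starts the peak belongs to cannot be told from positions.

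Among the canonical PRC1 genes, *Phc1* (chr6:122317731-122340561, minus strand) held the 5th widest peak of the series. It measured 10340 bp at chr6:122335882-122346221, from −5660 to +4679 bp, and covered 13 of 14 TSS. More of it lay upstream of the 5′ end than inside the gene, and no other annotated TSS lay within 1 kb. The midpoint of a 1110-bp intergenic peak lay 27169 bp upstream. The peaks next in width were those nearest to *Klf3* (10592 bp) and *Hsp90aa1* (11147 bp) above it, and to *Sox2* (9909 bp) and *Mllt6* (9215 bp) below it. *Nanog*, the pluripotency gene on the same chromosome, has its 5′ end 361268 bp from the *Phc1* peak, which lay outside the window used here.

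*Cbx7* (chr15:79915807-79971119, minus strand) had its widest peak at an internal start. A 1672-bp peak at chr15:79969451-79971122 began at −3 bp and ran to +1668 bp, so nearly all of it lay inside the gene. The 3440-bp peak at chr15:79930975-79934414 lay from +36705 to +40144 bp and covered 7 of 9 TSS, 1 of them 42 bp from its midpoint. Intronic peaks of 653 and 509 bp had their midpoints 17570 and 4338 bp from the nearest *Cbx7* TSS. The 1277-bp and 1461-bp peaks past its 3′ end both fell to *Apobec3*.

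*Kdm2b* (chr5:122870665-122989823, minus strand), the variant PRC1 gene, had a 5253-bp peak at chr5:122986834-122992086, the 116th widest, from −2263 to +2989 bp. It covered 7 of 19 TSS and overlapped the antisense gene *A930024E05Rik*, whose TSS lay nearer to its midpoint. A 453-bp peak at +90155 to +90607 bp had its nearest base 687 bp from the nearest internal *Kdm2b* TSS. The third window peak, 492 bp wide and in *Orai1*, had its nearest base 27028 bp from a *Kdm2b* TSS.

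Peaks covered the outermost 5′ end in 8 of 10 genes, against 19.7% of all coding genes and 35.5% of CpG-rich genes. Among genes with a peak at a TSS, the shares were 55.2% over all coding genes and 58.7% over CpG-rich genes. In 6 of the 8 subunit genes the peak extended farther downstream than upstream. Over the 8, a median of 63.9% of its width lay downstream, against 58.3% over the 4325 coding genes with a peak over the 5′ end. *Phc1* and *Jarid2* were the exceptions.

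The RefSeq promoters, taken from 250 bases before to 50 after each start on GRCm38.p6, gave a second view of the same starts. All 10 genes matched, with 15 promoters, some of which overlap within a gene. Of these, 8 lay wholly under a peak, 1 in part and 6 not at all. The 6 were the promoter of *Ezh2*, that of *Ring1*, both of *Jarid2* and the 2 internal ones of *Kdm2b*. Both *Jarid2* promoters fell in the 1550-bp interval between its 1146-bp and 3415-bp peaks. Over all 8361 RefSeq promoters with a peak base within 1 kb of the start, 28.6% had no base under a peak and 49.7% lay wholly under one.

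The uncovered promoters were rich in CpG. The internal *Kdm2b* promoters held 47 and 49 CpG dinucleotides in 300 bases, at 79.7% and 81.7% GC, and the *Ring1* promoter 37. At *Jarid2* the counts were 24 and 23, and at *Ezh2* 31. The *Phc1* promoter, wholly covered, had 9 CpG at 52.0% GC, but the covered *Suz12* promoter had 41 and that of *Cbx7* 33. Median GC was 69.2% for the uncovered and 62.2% for the wholly covered promoters of the 10 genes, and 63.3% and 61.3% over all promoters with a peak nearby. The internal *Kdm2b* promoters (chr5:122900318-122900617 and chr5:122900301-122900600) are almost the same sequence, and both count in the uncovered median. That median is therefore raised by a GC-rich site that counts more than once. The part of base composition in which bases were called as peaks was not tested.

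The CpG ratio at the outermost 5′ end ran from 0.456 at *Cbx7* to 0.936 at *Eed*, with a median of 0.806 against 0.552 over all coding genes. *Phc1* (0.505), *Kdm2b* (0.466) and *Cbx7* (0.456) fell below the limit of 0.6. The widest peaks of *Phc1* and *Kdm2b*, which covered that end, ranked 5th and 116th. The widest peak of *Cbx7*, ranked 479th, lay away from that end, from +36705 bp. The RefSeq promoter under it held 33 CpG dinucleotides. The GC content of the 33 peaks averaged 49.6% ± 5.71 (SD over peaks) against 51.4% ± 5.61 for all peaks.

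Short motifs in the reference sequence were counted on both strands as a description of the peaks. They were the octamer of POU factors such as OCT4 (ATTTGCAT), an ESRRB motif (TCAAGGTCA), a KLF motif (GGGNGTGG), an ETS motif (CCGGAAGT), the E-box (CACGTG, which equals its reverse complement), the SP1 motif (GGGCGG) and AP-1 (TGACTCA or TGAGTCA). Of the 6 octamers in the window peaks, 3 are shown as examples from upstream or intergenic sequence, together with the ESRRB motif, each with 50 bases on either side, on the strand of the gene and with the motif in capitals. At *Phc1* (chr6:122341103-122341210, minus strand, upstream of the gene) an octamer lay 102 bp from the midpoint of the 10340-bp peak, and the KLF motif beside it is also in capitals. The octamer of *Jarid2* (chr13:44705618-44705725, plus strand) lay in the intergenic peak, that of *Kdm2b* (chr5:122991460-122991567, minus strand) in the upstream part of the 5253-bp peak, and the ESRRB motif of *Mtf2* (chr5:108077439-108077547, plus strand) in the 722-bp intronic peak.
Phc1 octamer and KLF: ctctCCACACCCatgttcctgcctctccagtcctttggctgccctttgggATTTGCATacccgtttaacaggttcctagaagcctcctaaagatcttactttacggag
Jarid2 octamer: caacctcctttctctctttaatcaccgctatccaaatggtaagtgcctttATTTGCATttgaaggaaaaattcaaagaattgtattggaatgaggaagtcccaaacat
Kdm2b octamer: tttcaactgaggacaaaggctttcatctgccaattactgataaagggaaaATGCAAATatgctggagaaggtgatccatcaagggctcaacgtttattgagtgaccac
Mtf2 ESRRB: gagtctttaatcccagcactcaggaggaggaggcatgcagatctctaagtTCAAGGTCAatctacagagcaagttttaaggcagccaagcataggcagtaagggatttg

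The *Mtf2* stretch was mostly repeat, with 88 of 109 bases masked as repetitive in the assembly, whereas none of the 108 bases at *Phc1* or *Kdm2b* were. In whole peaks, the octamer occurred in 5 of the 33, those of *Eed*, *Rnf2*, *Kdm2b*, the 10340-bp peak of *Phc1*, which held 2, and the intergenic peak of *Jarid2*. Among all peaks 5.12% held it, and among peaks of at least 3 kb 19.0%. Of the 6 wide peaks at the subunit genes, 3 held it. Of the 33 peaks, 18 held the KLF motif (37.9% of all peaks), 12 the E-box (23.6%) and 6 AP-1 (17.1%). The SP1 motif occurred in 16 (52%), ETS in 1 (8.78%) and ESRRB in 1 (3.61%). Of the 6 wide peaks, 6 held KLF motifs, 6 SP1 motifs, 5 E-boxes and 2 AP-1, and none ETS or ESRRB. Among all peaks of at least 3 kb the shares were, in that order, 86.8%, 91.2%, 59.9%, 47.2%, 16.6% and 14.2%. Wider peaks have more room for any motif, so the equal windows of 400 bp around the midpoints were counted too.

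In those windows the octamer occurred in 1 of 33 peaks (3.03%, *Phc1*) against 1.52% of all peaks, and the ESRRB motif in 1 (*Mtf2*) against 1.01%. KLF motifs occurred in 9 (27.3%) against 16.9%, and SP1 motifs in 11 (33.3%) against 30.8%. AP-1 motifs occurred in 2 (6.06%, the intronic *Ezh2* peak and the upstream *Mtf2* peak) against 5.83%, E-boxes in 2 against 9.09%, and the ETS motif in none against 3.58%. Of the 15 RefSeq promoters, which share sequence within some genes, 10 (in 7 genes) held the SP1 motif, against 35.7% of all 32851 promoters. CpG-rich 5′ ends were found in 7 of the 10 genes against 45.9% of all coding genes, and the motif was not counted over CpG-rich promoters alone. The KLF motif occurred in 3 of the 15, those of *Cbx7*, *Kdm2b* and *Rnf2*, against 17.6% of all. The other 5 motifs had no match in the 15 promoters, and occurred in 1.74% (octamer), 0.423% (ESRRB), 3.89% (ETS), 7.15% (E-box) and 5.20% (AP-1) of all promoters. A match is a run of letters and does not show that a factor binds there.

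The same counts were made for the other Polycomb genes. Of 33 other genes of PRC2, PRC1 and the deubiquitinase complex PR-DUB, which removes the mark that PRC1 adds, 16 (48.5%, 32.5 to 64.8%) had a peak at a TSS. Over all coding genes the share was 35.7%. Of the 33 genes, 30 were CpG-rich, and 15 of those 30 had such a peak, against 60.4% of all CpG-rich genes. By role the 16 were 3 of 3 further PRC2 core genes, 1 of 5 PRC2 accessory, 3 of 9 canonical PRC1, 6 of 12 variant PRC1 and 3 of 4 PR-DUB genes. The 16 genes had a median widest peak of 1364 bp at the TSS. In 2 of the 33 genes (6.06%) it reached 3 kb, against 3.35% of all coding genes and 5.83% of CpG-rich genes. The 2 genes were *Asxl2* (3668 bp), a cofactor of the PR-DUB enzyme, and *Pcgf2* (3539 bp), a RING-finger partner of the E3 ligases. *Rbbp4* (2594 bp), a histone-binding PRC2 subunit, *Asxl1* (2504 bp) and *Bap1* (2203 bp), the deubiquitinase itself, followed.

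Within 1 kb of every TSS, peaks were missing at 17 of the 33: *Phf1*, *Phf19*, *Epop*, *Lcor*, *Cbx2*, *Cbx8*, *Phc2*, *Phc3*, *Bmi1*, *Scml2*, *Pcgf1*, *Pcgf6*, *Yaf2*, *Bcor*, *Bcorl1*, *E2f6* and *Asxl3*. Of these, 15 were CpG-rich and 7 had a peak elsewhere in the window. Several are paralogues of the subunit genes above. At *Phc2* the nearest peak base was 83046 bp from a TSS and at *Phc3* 25305 bp, whereas *Phc1* lay under 10340 bp of peak. For the chromodomain genes the distance was 215174 bp at *Cbx2* and 197930 bp at *Cbx8*, while *Cbx6* had a 1211-bp peak at its TSS.

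*Ezh1*, the paralogue of *Ezh2*, had a 460-bp peak whose nearest base was 367 bp from a TSS. *Phf1* and *Phf19*, which share the domain structure of *Mtf2*, had none at a TSS, the nearest bases lying 4921 and 32047 bp away. Against each of the paralogues named here, *Phc1*, *Cbx7*, *Ezh2* and *Mtf2* had the wider peak at a TSS. The genes were chosen with the peaks known, so the contrast is given as values without a test.

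**Figure D4:**
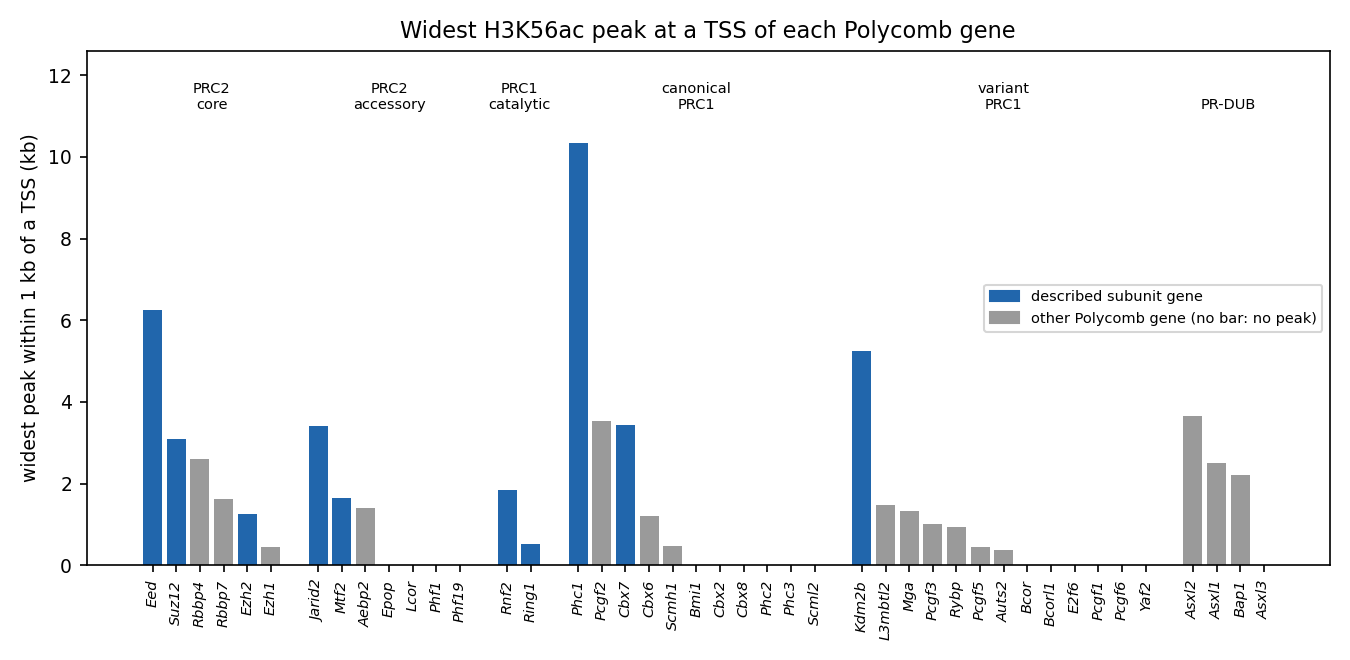
Width of the widest H3K56ac peak with a base within 1 kb of a TSS (kb, linear axis from 0) for the 10 described genes (blue) and 33 other Polycomb genes (grey), grouped by complex. Genes without a bar had no such peak, and the *Phc1* bar (10340 bp) is the tallest.

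The same counts were made for other families of chromatin regulators. A peak at a TSS was found for 5 of 8 DNA methylation enzymes and their partners, 7 of 11 zinc-dependent histone deacetylases and 13 of 18 chromatin remodelers, and peaks of at least 3 kb at a TSS for 1, 0 and 3 of them, against 3.35% of all coding genes. The Wilson intervals of these lists were 30.6 to 86.3%, 35.4 to 84.8% and 49.1 to 87.5%, beside 35.7% of all coding genes and 60.4% of CpG-rich genes. The lists were chosen with earlier results known and share 1 merged set. Differences between lists or from the background were therefore not tested. CpG-rich 5′ ends were found in 2 of the 8, 4 of the 11 and 17 of the 18 genes.

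**Figure D5:**
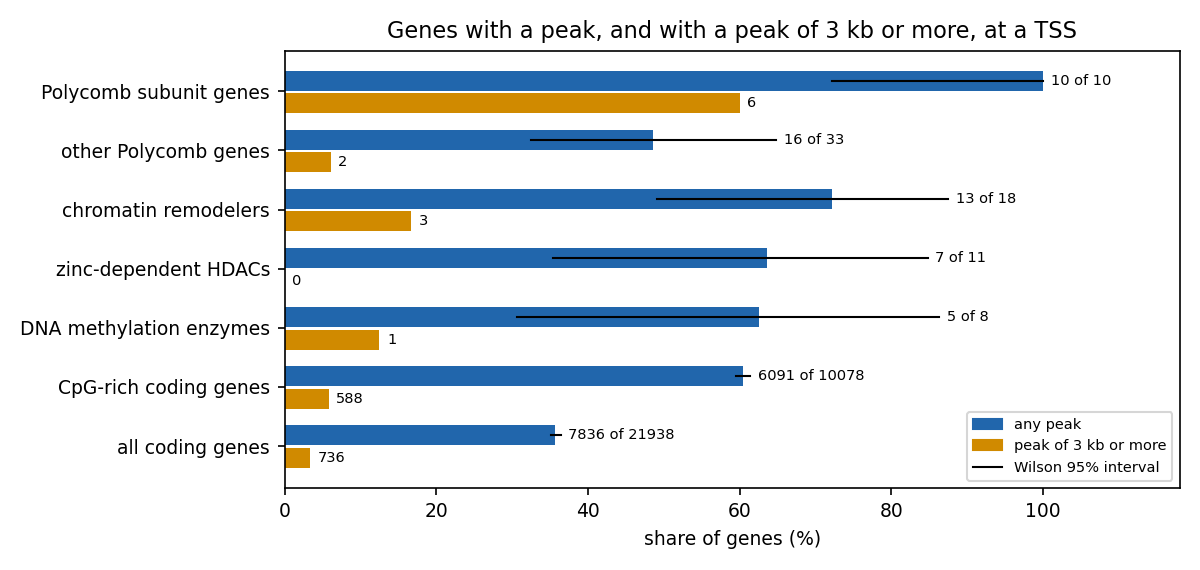
Share of genes (%) with any peak (blue, with Wilson 95% interval) and with a peak of at least 3 kb (yellow) within 1 kb of a TSS, per list of genes, with the counts beside the bars. The 10 subunit genes reach 100% and 60.0%, and all coding genes 35.7% and 3.35%.

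The labelled cell type was checked against marker genes. A peak at a TSS was found for 8 of 8 pluripotency markers, against 35.7% of all coding genes. Of the 8, 6 had one of at least 3 kb, against 3.35%. None was found for 14 fibroblast genes, chosen because of the feeder cells (upper Wilson limit 21.5%), or for 8 muscle genes (32.4%). CpG-rich 5′ ends were found in 3 pluripotency, 2 fibroblast and 1 muscle genes. *Twist2* and *S100a4* of the fibroblast genes and *Pax7* and *Ckm* of the muscle genes had a peak elsewhere in the window.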

How the data were processed

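H3K56ac ChIP and input libraries of V6.5 mESCs were sequenced by the authors. Per the labels and the study's methods, reads were trimmed with Trim Galore, aligned to mm10 with bowtie, keeping reads with a single location, and deduplicated with Picard. Peaks were called with MACS2, filtered against the ENCODE blacklist and merged with GenomicRanges. The deposited file gives positions, and its score is 0 for every peak, so the score carries no measurement. The file gives no depth, library depths were not used here, and the read counts per peak that the authors tested between groups are not analysed here.

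Positions are printed counted from 1. Peaks were joined to genes and TSS of all transcripts in GENCODE M21, and sequences were read from GRCm38.p6 and RefSeq with Python 3.11.15, numpy 2.4.6, scipy 1.17.1 and matplotlib 3.10.9. The joins were tested on simulated data, where all 500 planted genes were assigned correctly. Members, gene lists and limits were chosen with earlier results of these data known. Named were all 10 members, the 5 other Polycomb genes with the widest peaks at a TSS, those with none, paralogues of members, the genes beside the 2 peaks wider and 2 narrower than that of *Phc1*, and neighbours with a TSS within 1 kb of a window peak. *Utp6* and *Orai1*, the genes nearest to 3 window peaks without such a TSS, the neighbouring *Nanog*, the comparison lists and marker genes were added as context. The window, the TSS set, the distance and width limits and the use of midpoints were varied. A gene of the planned Polycomb list is not reported here and was left out of its counts.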

Additional observations from a re-analysis of the deposited data

How the results depend on the processing

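Of 33 alternative settings for 7 results, 31 left the value within 1.5 times the value given, or, for the median width, within its interval. That interval was used only as a descriptive range. Taking peaks in gene bodies alone lowered the number of peaks from 33 to 18, because flanks were left out. A width of at least 4 kb in place of 3 kb lowered the number of genes with a wide peak from 6 to 3. Requiring a midpoint, not an edge, within the 1-kb limit left 9 of 10 genes, without *Eed*, and peaks of at least 1 kb left 9, without *Ring1*. The median width was 1217 bp without *Phc1*. No paired analysis was possible because no library has a value of its own in the merged set, and for the same reason no library could be left out and no stricter score applied. Widths, and which starts, promoters and motifs lie under a peak, depend on how the authors joined neighbouring peaks, which cannot be varied here.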
